A study of Mus musculus with 3 samples.

Results

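The lysine demethylases of histones described here are 10 genes, Kdm1a, Kdm2a, Kdm2b, Kdm3a, Kdm3b, Kdm4a, Kdm4c, Kdm5a, Kdm5b and Kdm6b, out of 18193 genes that the array annotation names. They were found by symbol, and every probe set that the annotation assigns to 1 of them alone was taken, which gave 30 probe sets. A probe set is a group of short oligonucleotides that together report on a transcript. The RNA came from mouse embryonic stem (ES) cells in which Pou5f1 can be knocked out conditionally. Pou5f1 encodes Oct3/4, a transcription factor that ES cells need to stay pluripotent. The 3 groups were the conditional knockout cells at day 0, at day 1 and at day 2, with 1 array each. The study asked how expression responds when Oct3/4 is lost, and a conditional knockout was needed because cells without the gene cannot be kept. All 3 groups are labelled as the conditional Pou5f1 knockout, and the labels do not say how it was built. The agent that induced the knockout, the parental line, the number of clones and any feeder cells are not given in the sources used here.

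Histone lysine demethylases take methyl groups off lysines in the histone tails, and so reverse the work of the methyltransferases. Kdm1a does this as a flavin-dependent amine oxidase, and the other 9 genes encode JmjC-domain enzymes, which use iron, oxygen and 2-oxoglutarate. Members differ in the lysine that they act on: methylated H3K4 and H3K36 mark active genes, and methylated H3K9 and H3K27 mark silent ones. In ES cells Kdm3a and Kdm4c are known as genes that Oct3/4 activates, and Kdm2b as the subunit that brings a variant Polycomb complex to CpG islands.

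With 1 array per day there is no replicate error, no test and no p-value, and all values describe these 3 arrays. Time in culture and any inducing treatment cannot be told apart from the loss of Oct3/4, since no matched culture that kept the gene to day 1 or day 2 was analysed here. Pou5f1 itself, measured by 1 probe set, went from a signal of 2400.4 (day 0) through 40.8 (day 1) to 15.5 (day 2). The summed signal of 7 ES cell markers was 93962 at day 0, followed by 66123 at day 1 and 22843 at day 2, and that of 6 trophectoderm markers was 9897, 13779.9 and 51269.6. Most of the latter sum at day 2 came from Krt8 (18358) and Krt18 (24609.8), while Eomes was at 381, 844 and 295 and Cdx2 at 152, 856 and 828. Of 8 fibroblast markers, 5 (Col1a1, Col3a1, Lum, Dcn and Postn) were below 55.9 on average, and the summed signal of all 8 was 703, 655 and 478. Thy1 carried that decrease (399.8, 275 and 89.3), while Col1a2 (96.8, 102 and 127) and Pdgfrb (60.8, 144 and 123) were higher at day 2 than at day 0. How far this shift in cell markers bears on the demethylase values was not tested, and fewer cells of a type cannot be told apart from less RNA per cell in these bulk samples.

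Differences are given in log2(signal + 55.9), where the added constant is the 40th percentile of all signals and damps the differences of dim probe sets. Of the 30 probe sets, 27 had a mean signal at or above the constant and were kept, at least 1 for each of the 10 genes. A gene was represented by its brightest kept probe set. The only error that the arrays give is the spread between kept probe sets of the same gene, over 5906 genes, with a pooled SD of 0.30 for the first day, 0.34 for both days together (day 2 against day 0) and 0.30 for the step from day 1 to day 2. It holds no variation between cultures or hybridisations.

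At day 2, 3 of the 10 demethylase genes were at least 2-fold lower than at day 0, namely Kdm3a, Kdm5b and Kdm4c, and 1, Kdm6b, was at least 2-fold higher. Over the 12717 genes measured, 5.65% were at least 2-fold lower and 5.25% at least 2-fold higher in this comparison. At day 1, 2 of the 10, Kdm4c and Kdm3a, were at least 2-fold lower and 0 higher, beside 2.59% lower and 2.40% higher over all genes. Between day 1 and day 2 none of the 10 reached 2-fold either way, beside 2.65% lower and 2.09% higher over all genes. The median difference of the 10 was -0.18 at day 1 and -0.29 at day 2, and over all genes it was 0.04 and 0.05. Ribosomal protein scaling, which brought the all-gene medians to -0.11 and -0.10, gave a background of 3.61% lower and 1.49% higher at day 1, and of 7.05% lower and 3.97% higher at day 2.

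**Figure D1:**
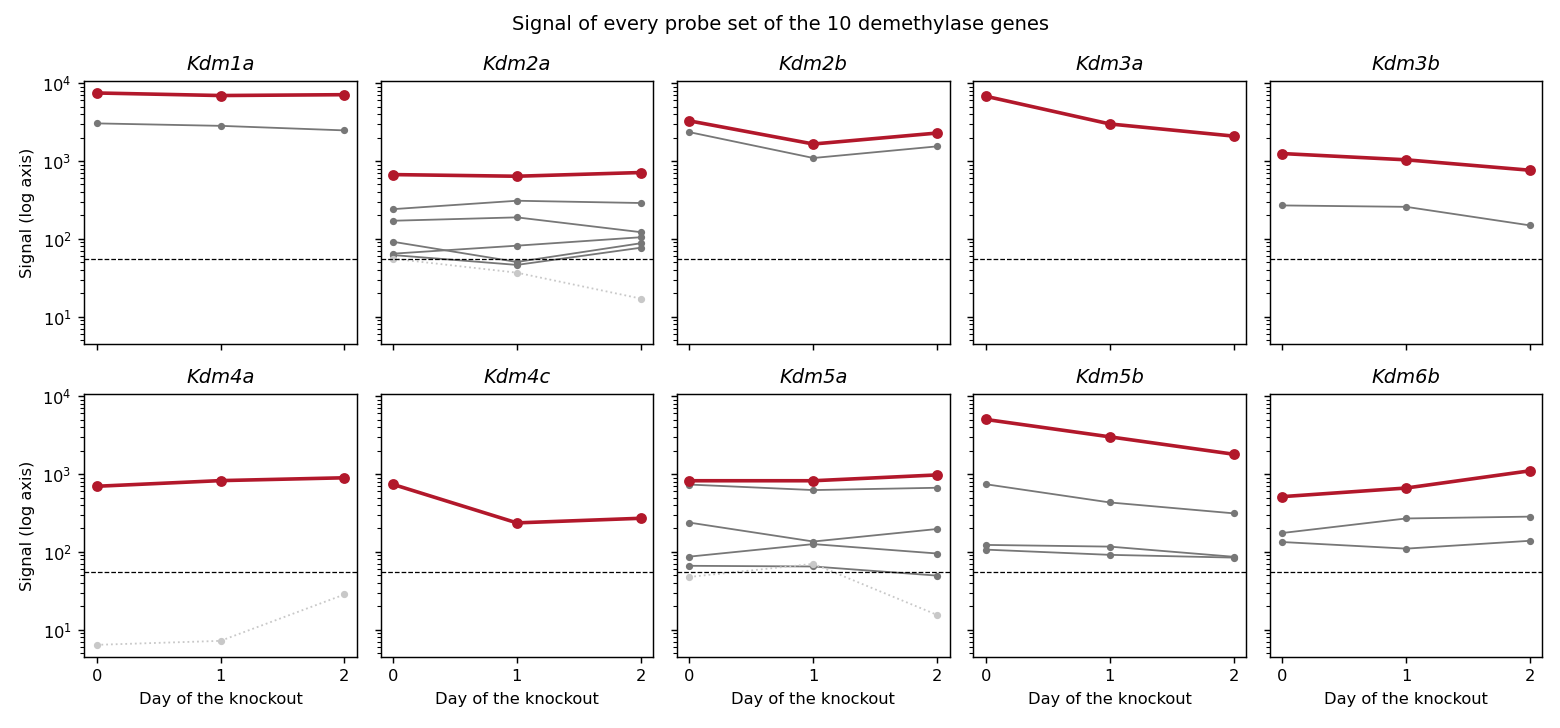
Signal (log axis) of each probe set of the 10 genes at day 0, day 1 and day 2, with the brightest kept probe set of a gene in red, other kept probe sets in grey and the 3 that were not kept dotted. The dashed line is the constant of 55.9; the red lines of Kdm3a, Kdm4c and Kdm5b end well below where they start, that of Kdm2b dips at day 1, and that of Kdm6b climbs.

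Kdm3a, which removes mono- and dimethyl groups from H3K9, had the largest difference of the 10. Its single probe set read 6794 at day 0, then 2996 at day 1, then 2091 at day 2. The level was highest at day 0 and lowest at day 2, and each step was larger than the spread between probe sets. The difference was -1.17 (2.24-fold lower) at day 1 and -1.67 (3.19-fold lower) at day 2, so 69.7% of the day 2 difference was present at day 1. Only 2.05% of all genes ranked at or below it at day 2.

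Kdm4c removes trimethyl groups from H3K9 and H3K36, and its difference was at full size after a single day. Its 1 probe set read 737 at day 0, then 236 at day 1, then 270.5 at day 2. Day 1 and day 2 both lay far below day 0, and differed from each other by 0.16, less than the SD of 0.30 between probe sets. Against day 0 the difference was -1.44 (2.71-fold lower) at day 1 and -1.28 (2.43-fold lower) at day 2. At day 1 Kdm4c was the lowest of the 10, and 1.09% of all genes ranked at or below it.

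Kdm5b, a demethylase of di- and trimethylated H3K4, was lower at each successive day. Its brightest probe set gave 5030.3 at day 0, 3009 at day 1 and 1799 at day 2. These are differences of -0.73 (1.66-fold lower) at day 1 and -1.46 (2.74-fold lower) at day 2, with 50.2% of the day 2 difference present at day 1. The next brightest probe set went the same way, with signals of 740.3, 432 and 313 and a day 2 difference of -1.11. The other 2 kept probe sets were dim, at 123 and 107 at day 0, and gave day 2 differences of only -0.33 and -0.22. The mean over the 4 kept probe sets was -0.78 at day 2, short of 2-fold, so the call of Kdm5b rests on its 2 bright probe sets.

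Kdm2b, which acts on H3K36 and carries a zinc finger that binds unmethylated CpG, had its lowest level at day 1. The brightest probe set gave 3280.4 at day 0, 1655 at day 1 and 2290.3 at day 2, and the other gave 2350.0, 1094 and 1544. Both were lowest at day 1 and intermediate at day 2. The difference at day 1 was -0.96 for the brightest probe set, 1.95-fold and so just short of 2-fold, and -1.06 for the other. The mean of both was -1.01, and ribosomal protein scaling gave -1.13 for the brightest. From day 1 to day 2 the brightest probe set was higher by 0.46 and the other by 0.48, and at day 2 they stood at -0.51 and -0.59 against day 0.

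Kdm3b, a paralogue of Kdm3a, had signals of 1248 at day 0, followed by 1037 at day 1 and 762 at day 2. Its second probe set gave 269, 258 and 149, so both were lowest at day 2. The difference was -0.25 at day 1, within the SD of 0.30, and -0.67 (1.59-fold lower) at day 2 by either probe set. Most of the Kdm3b difference thus came between day 1 and day 2, where the probe sets gave -0.42 and -0.62.

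Kdm6b, which removes methyl groups from H3K27, the mark that Polycomb repressive complex 2 lays down, was the 1 gene of the 10 that was at least 2-fold higher at day 2. Its brightest probe set gave 513 at day 0, 662 at day 1 and 1102 at day 2. The level was highest at day 2, with a difference of 0.34 at day 1 and 1.03 (2.04-fold higher) at day 2. The other 2 probe sets gave 175, 269 and 284 for one, and 134, 110.2 and 139 for the other. Their day 2 differences were 0.56 and 0.04, so the size of the Kdm6b difference depended on the probe set. As the mean over its probe sets Kdm6b was at 0.54, with a constant of 151 at 0.92, with ribosomal protein scaling at 0.88, and after quantile normalisation just under 2-fold, at a value that rounds to 1.00.

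The other 4 genes differed by no more than the spread between probe sets at day 2. Kdm1a, the demethylase of mono- and dimethylated H3K4, had signals of 7489 at day 0, followed by 6944 at day 1 and 7120.0 at day 2, a difference of -0.07 at day 2, and -0.29 by its other probe set. Kdm5a, a paralogue of Kdm5b, had signals of 821, 821 and 975 and a day 2 difference of 0.23. Its 5 kept probe sets ranged from -0.62 to 0.35 at day 1 and from -0.22 to 0.23 at day 2.

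Kdm2a, the H3K36 demethylase that pairs with Kdm2b, had 6 kept probe sets, the most of the 10 genes. The brightest gave 669.9 at day 0, 638 at day 1 and 712 at day 2, and the 6 differences at day 2 ranged from -0.35 to 0.42 around 0.08 for the brightest. Kdm4a, a paralogue of Kdm4c, gave 697, 824 and 896, a difference of 0.34 at day 2 that equals the SD to 2 decimals. No direction is given for Kdm1a, Kdm2a and Kdm5a, because their probe sets or their values under other settings fell on both sides of 0 or lay within the SD. Nor is one given for Kdm4a, which did not exceed the SD, has 1 kept probe set and was at 0.19 with ribosomal protein scaling. The 3 probe sets that were not kept belong to Kdm2a, Kdm4a and Kdm5a, with mean signals of 36.5, 14.0 and 44.5.

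**Figure D2:**
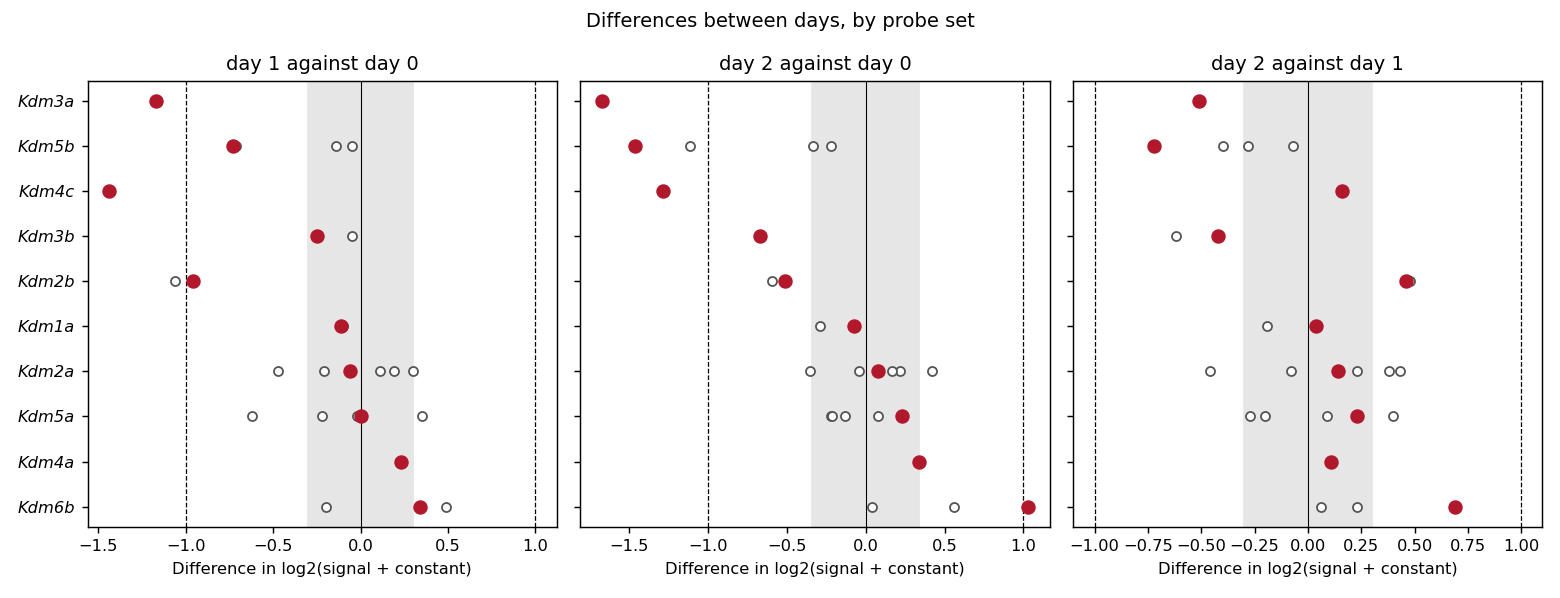
Difference in log2(signal + constant) of each kept probe set in the 3 comparisons between days, with the brightest probe set of each gene filled and others open. The grey band is the pooled SD between probe sets of a gene (0.30, 0.34 and 0.30) and the dashed lines are 2-fold; at day 2 Kdm3a, Kdm5b and Kdm4c lie beyond the left line, and the probe sets of Kdm6b spread from 0.04 to 1.03.

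Close paralogues with the same substrate differed from each other. At day 2 Kdm5b was at -1.46 and Kdm5a at 0.23, a gap of 1.69 in log2. Kdm4c was at -1.28 and Kdm4a at 0.34, a gap of 1.62. Kdm3a was at -1.67 and Kdm3b at -0.67, a gap of 1.00, and Kdm2b was at -0.51 and Kdm2a at 0.08, a gap of 0.59. Each gap was larger than the pooled SD of 0.34, and in each pair at least 1 paralogue was lower by more than that SD. As means over the kept probe sets, Kdm5b was at -0.78 and Kdm5a at -0.05. At day 1 the gaps were 0.73 for Kdm5, 1.67 for Kdm4, 0.91 for Kdm3 and 0.90 for Kdm2. From day 1 to day 2 the Kdm5 gap changed by 0.96, beyond the SD of 0.30, and the Kdm2 gap by 0.31, close to it. The gaps of Kdm3 and Kdm4 changed by 0.09 and 0.05, within that SD, so both were present at day 1 at close to their day 2 size.

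Members with the same substrate did not all differ alike. Among the members that act on H3K4, Kdm5b was lower while Kdm1a and Kdm5a stayed within the SD at day 2. Outside the 10, Kdm1b (0.12) and Kdm5c (0.13) also stayed within it. Of the 10, 4 belong to the Kdm3 and Kdm4 families, which act on H3K9. Among these, Kdm3a, Kdm3b and Kdm4c were lower by more than the SD and Kdm4a was not. Other measured genes of these families were Jmjd1c, at -0.40, Hr, at 0.16, and Kdm4b, at 0.44. Of the 4 members that act on H3K36, Kdm4c and Kdm2b were lower by more than the SD, and Kdm2a and Kdm4a were not. Over all genes, 14.0% ranked at or below Kdm2b (-0.51) at day 2 and 9.99% at or below Kdm3b (-0.67). A difference past the SD is thus frequent over all genes, and these counts single out no substrate. Kdm6b is the only H3K27 demethylase of the 10. Its family member Kdm6a gave 1469 at day 0, 1119 at day 1 and 1103 at day 2, a difference of -0.40 at day 2.

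Kdm3a and Kdm5b had reached more of their day 2 difference at day 1 than the ES cell markers whose signal stayed above the constant. Nanog had reached 5.35% of its day 2 difference at day 1, Sox2 16.3%, Dppa5a 20.6%, Klf4 22.2%, Esrrb 33.8% and Zfp42 39.5%. The share was 69.7% for Kdm3a and 50.2% for Kdm5b. Pou5f1 lay below the constant at both later days, so the timing of its difference cannot be read in this way. Kdm2b was further from day 0 at day 1 than at day 2, and the Kdm4c values at both days lay within the SD of each other. Kdm3b (37.9%) and Kdm6b (32.7%), each by its brightest probe set, lay in the range of the markers. The other Kdm6b probe sets gave 0.49 and -0.20 at day 1, and 0.56 and 0.04 at day 2. The timing of the Kdm6b difference thus depended on the probe set. All these shares rest on the same day 0 array and describe the values without a test.

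**Figure D3:**
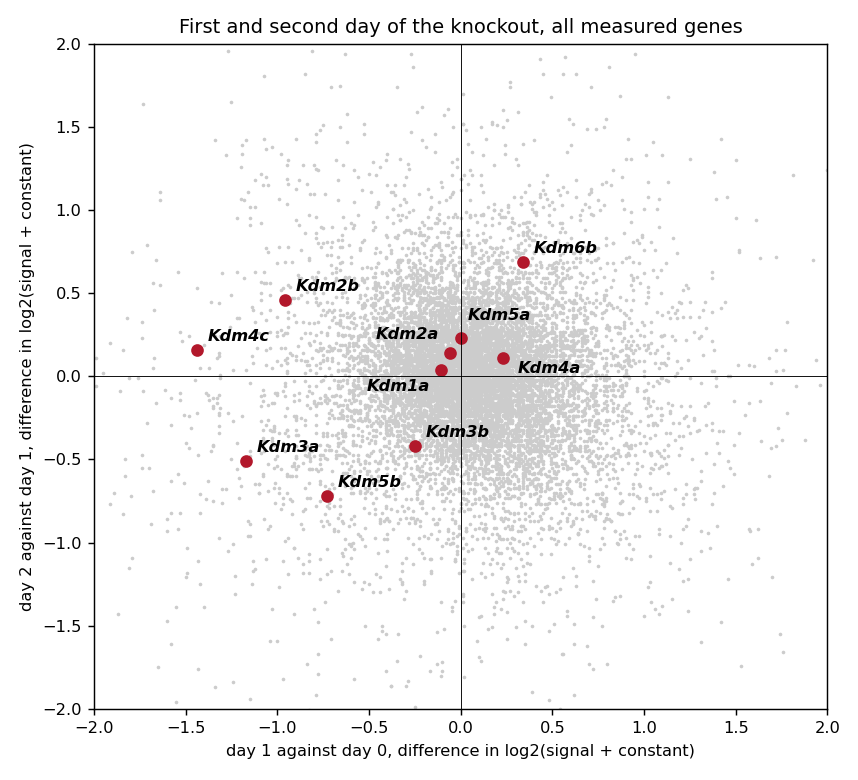
Each measured gene in grey by its difference in log2(signal + constant) from day 0 to day 1 (horizontal) and from day 1 to day 2 (vertical), with the 10 demethylase genes in red; 115 genes lie outside the axes. Kdm4c and Kdm2b lie left of 0 and above it, Kdm3a, Kdm5b and Kdm3b lie left of 0 and below it, and Kdm6b lies right of 0 and above it.

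The promoters of the 4 genes that were lower at day 1 by more than the pooled SD are shown because these genes share an early difference. The sequences come from RefSeq, assembly GRCm38.p6, as the 250 bases before an annotated transcript start, 5′ to 3′. Where a gene had several windows, 1 was chosen with the matches in view. They lie at chr6:71632918-71633167 (minus strand) for Kdm3a, chr4:74251629-74251878 (plus strand) for Kdm4c, chr1:134559928-134560177 (plus strand) for Kdm5b and chr5:122900368-122900617 (minus strand) for Kdm2b. Capitals mark matches, on either strand, to the octamer ATGCAAAT that Oct3/4 binds, the half-site ATGCAT in 2 tandem copies, a site for pairs of POU factors, the CCAAT box, the E box CACGTG and the GC box GGGCGG, and neighbouring matches can touch.
Kdm3a: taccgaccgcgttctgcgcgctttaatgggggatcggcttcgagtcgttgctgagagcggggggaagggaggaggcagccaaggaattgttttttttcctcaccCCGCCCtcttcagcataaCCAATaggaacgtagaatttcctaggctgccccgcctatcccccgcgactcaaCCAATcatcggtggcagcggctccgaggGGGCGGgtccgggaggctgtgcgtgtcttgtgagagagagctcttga
Kdm4c: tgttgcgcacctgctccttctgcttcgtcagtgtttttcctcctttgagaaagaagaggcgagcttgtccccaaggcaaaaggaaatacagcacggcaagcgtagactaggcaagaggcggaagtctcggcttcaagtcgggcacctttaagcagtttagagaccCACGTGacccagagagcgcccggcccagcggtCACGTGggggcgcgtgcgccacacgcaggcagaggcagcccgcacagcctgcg
Kdm5b: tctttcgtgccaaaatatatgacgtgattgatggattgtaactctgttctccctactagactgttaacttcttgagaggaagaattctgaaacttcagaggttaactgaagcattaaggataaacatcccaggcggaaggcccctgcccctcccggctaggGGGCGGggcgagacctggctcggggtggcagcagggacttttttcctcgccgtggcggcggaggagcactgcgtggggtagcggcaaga
Kdm2b: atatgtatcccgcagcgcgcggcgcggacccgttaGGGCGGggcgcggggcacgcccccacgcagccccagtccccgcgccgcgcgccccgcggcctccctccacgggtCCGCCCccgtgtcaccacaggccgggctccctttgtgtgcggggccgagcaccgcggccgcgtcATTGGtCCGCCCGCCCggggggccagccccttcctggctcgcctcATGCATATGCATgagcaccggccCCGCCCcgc

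The promoter table held 12 windows for 6 of the 10 genes, Kdm1a, Kdm2b, Kdm3a, Kdm4a, Kdm4c and Kdm5b, and Kdm2a, Kdm3b, Kdm5a and Kdm6b were not matched. The octamer was in 0 of these 12 windows and in 1.60% of all 32851 promoter windows of the same length. The tandem half-site was in 2 overlapping windows of Kdm2b, 32 and 49 bases before the respective start. Both matches are the same site, and the other windows of Kdm2b held none. In all, the tandem half-site was in 3 windows (0.00913%) of 2 genes. It was searched after the Kdm2b sequence had been seen. The E box was in 1 window, that of Kdm4c, with 2 matches, and in 6.02% of all windows. The CCAAT box was in 5 of the 12 windows, from 4 genes (33.8% of all windows), and the GC box in 6 of the 12, from 3 genes (32.7%). These 12 windows held a median of 19.5 CG dinucleotides, and all windows a median of 6. The 12 come from 6 genes and some of them overlap, so they are not independent promoters. A match shows that these letters are present and not that a factor binds.

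Among the other genes of the family, Kdm7a and Jarid2 were past 2-fold. Of 17 other demethylase and JmjC genes 15 were measured, and Kdm4d and Kdm5d were below the constant. At day 2, 2 of the 15 were at least 2-fold lower and 0 higher, beside 5.65% lower and 5.25% higher over all genes. The median of the 15 was 0.08. Kdm7a, which acts on H3K9 and H3K27, had signals of 426 at day 0, followed by 172 at day 1 and 160.3 at day 2. Its difference was -1.08 at day 1 and -1.16 at day 2, an early course in which day 1 and day 2 lay close together, as for Kdm4c. The 3 kept probe sets of Kdm7a ranged from -1.31 to -0.84 at day 2. Jarid2, a JmjC protein without demethylase activity that works with Polycomb repressive complex 2, gave 9085, 6837 and 3962, a later course that reached -1.19. The highest was Phf2, at 0.81, though its other kept probe set gave -0.73.

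Among the enzymes that add the methyl groups, Setd7 and Kmt2a were past 2-fold at day 2. Of 25 listed methyltransferases 23 were measured, and 2 of them were higher and 0 lower by that rule, beside 5.25% higher and 5.65% lower over all genes, with a median of 0.16. Both higher genes encode H3K4 methyltransferases, of which 7 were measured, with a median of 0.19. Setd7 had signals of 395 at day 0, followed by 552 at day 1 and 1038 at day 2 (difference 1.28), and Kmt2a had 452, 666 and 1004 (1.06). Their other kept probe sets gave 0.22 and 0.37, so neither call is shared by all probe sets. The lowest was Nsd1, a methyltransferase for H3K36, at -0.88 with signals of 2421, 1728 and 1294. Its 4 kept probe sets ranged from -0.88 to -0.21.

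Partners of Kdm1a and Kdm2b included the largest difference among these lists. Of 18 listed partners 17 were measured, with a median of 0.24 at day 2 against day 0. In that comparison 3 were at least 2-fold higher and 0 lower, beside 5.25% higher and 5.65% lower over all genes. The 3 include Gfi1b, which was below the constant at day 0 and passed the filter through its later signals, so its place among them is no support for the count. Bcor, a subunit of the Polycomb complex that contains Kdm2b, had signals of 671 at day 0, followed by 1035 at day 1 and 4374 at day 2, a difference of 2.61. Its 3 kept probe sets gave 2.37 to 2.61. Yaf2, another subunit of variant Polycomb complexes, gave 314, 518 and 853, a difference of 1.30, and 1.48 by its other probe set. Bcor and Yaf2 were highest at day 2, while Kdm2b itself was below its day 0 level at both later days. The other measured partners of Kdm2b were within 2-fold at day 2. Of these, Rnf2 (3086, 1955 and 2318, difference -0.40) was lowest at day 1, as Kdm2b was, and Usp7 was at -0.36. Pcgf1 (0.02), Skp1 (0.24), Bcorl1 (0.24) and Ring1 (0.56) were not lower.

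Among the partners of Kdm1a, Gfi1b, a transcriptional repressor, had signals of 14.7 at day 0, followed by 131 at day 1 and 93.3 at day 2, a difference of 1.08 that starts below the constant. Rcor2, a CoREST protein of ES cells, was the lowest partner, with 1801, 1018 and 1034 and a difference of -0.77. Its relative Rcor1 went the other way, with 727, 1217 and 1332 and a difference of 0.83. The deacetylase genes Hdac1 and Hdac2 were at -0.40 and -0.64, and Kdm1a, as given above, at -0.07.

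**Figure D4:**
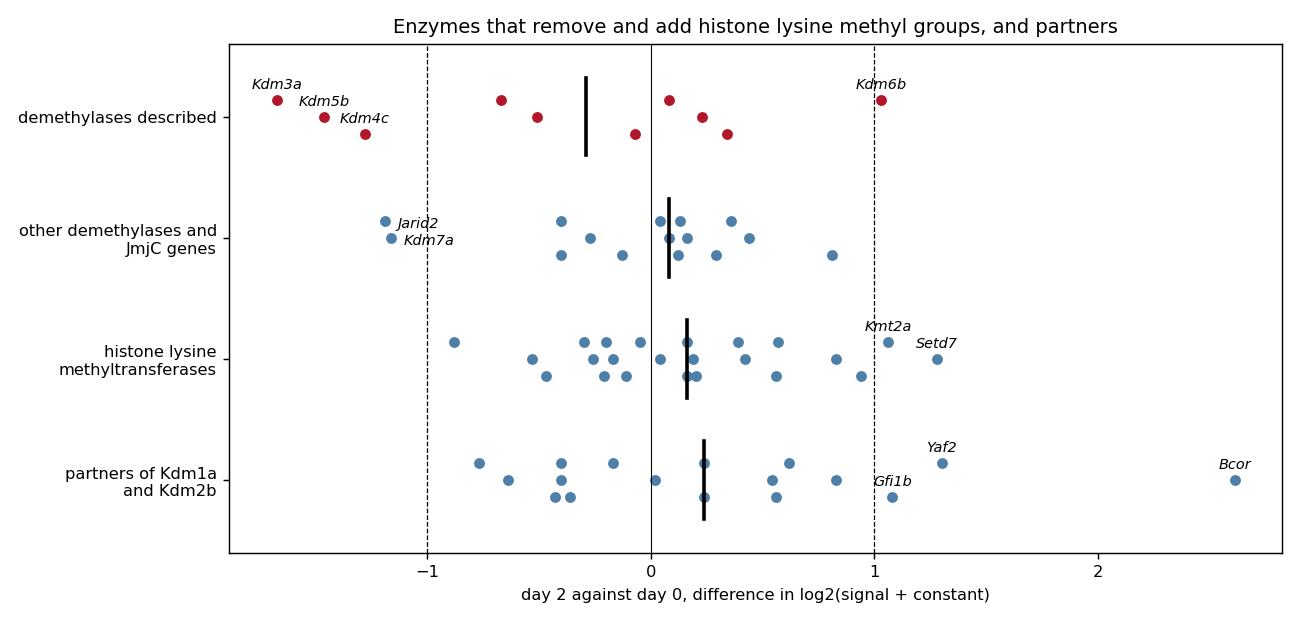
Difference at day 2 against day 0, in log2(signal + constant), of each measured gene in the 4 lists, with the list median as a black bar and 2-fold as dashed lines; vertical scatter within a list only separates the points. The medians are -0.29 for the 10 demethylases, 0.08 for other demethylases and JmjC genes, 0.16 for methyltransferases and 0.24 for partners.

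Over the 3 arrays, the genes closest to Kdm3a in the pair of differences at day 1 and day 2 were Tm4sf5 (-1.16 and -1.67), Ttc39b (-1.15 and -1.63) and Maats1 (-1.18 and -1.72), at Euclidean distances of 0.00604, 0.0421 and 0.0499. Those closest to Kdm6b were Slc16a6 (0.34 and 1.03), Caskin2 (0.33 and 1.02) and Ms4a4d (0.33 and 1.04), at distances of 0.00221, 0.00911 and 0.0170. Within a distance of 0.1 there were 7 genes for Kdm3a and 42 for Kdm6b. That distance is below the SD between probe sets, and genes lie more densely near 0, so these counts and the names describe the arrays and single out neither gene.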

How the data were processed

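Total RNA of 3 samples was labelled with biotin and hybridised to Affymetrix arrays. The deposited values are linear intensities, 1 per probe set, made with MAS5 per the submitters' processing notes, which give no version. The arrays share a 2% trimmed mean of 498, and scaling to it moved them little. The day 2 column differs in format: it holds 45101 values, including 64 control probe sets left out here, against 45037 in each other column, and 4406 of its values lack a decimal point against 0 in the others. The labels do not say whether it was handled separately.

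Of 45037 probe sets, 34945 name 1 gene, 932 several and 9160 are not listed; 34754 matched GRCm38.p6 by Entrez identifier. Kept were 26925 (59.8%), with a mean signal of at least 55.9. Differences and the 2-fold rule were computed in Python 3.11.15 with pandas 2.3.3 and checked on simulated data. The 8 alternatives changed the constant, filter, scaling or choice of probe set. The genes named are all members, Pou5f1, the markers, and each list's genes past 2-fold at day 2 with its highest and lowest. The 3 nearest genes to the members with the largest rise and fall were also named. Hdac1, Hdac2, Rcor1, Kdm6a and the Kdm2b partners within 2-fold were named after their values were seen. So were Kdm1b, Kdm5c, Jmjd1c, Hr and Kdm4b. The members and lists were chosen with earlier results of these data known. Precision is limited by having 3 arrays.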

Additional observations from a re-analysis of the deposited data

How the results depend on the processing

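Under the 8 alternatives, 235 of 240 recomputed values for single demethylase genes moved by less than the SD between probe sets, and 5 moved further. The genes past 2-fold kept their direction under all 8, while Kdm2a (0.08) and Kdm5a (0.23) at day 2 reached -0.07 and -0.05, and Kdm1a from day 1 to day 2 (0.04) reached -0.19, all within the SD. The 5 were all under the mean over probe sets: Kdm5b was at -0.41 after the first day, at -0.78 after both days and at -0.37 over the step from day 1 to day 2, and Kdm6b was at 0.54 after both days and at 0.33 over that step. The count of demethylase genes at least 2-fold higher at day 2, 1 (Kdm6b), was 0 with the constant at the 60th percentile, with quantile normalisation, with equal ribosomal protein medians and with the mean over probe sets. The remaining 140 of the 144 recomputed counts and medians stayed within 1.5 times or within the SD. The count of lower genes was 2 or 3 at day 1 and 2 or 3 at day 2. No paired analysis was possible because each day has 1 array, and for the same reason no replicate could be left out.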

Other observations

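A further probe set names Kdm6b together with 1700064E03Rik and was therefore no member. It read 543 at day 0, then 593, then 1027 at day 2, a difference of 0.12 at day 1 and 0.85 at day 2. It followed the order of days of the brightest Kdm6b probe set, but which of both genes it measures cannot be told.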
